A study of Mus musculus with 4 samples.

Results

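The genes described here are those of the interleukin-18 (IL-18) and interleukin-12 (IL-12) receptors, their signal transducer and their ligands, followed across the leukocytes of the mouse ovary. They are 7 of the 32285 genes in the count table and were taken by symbol: Il18rap, Il18r1, Il12rb1, Il12rb2, Stat4, Il18 and Il12b. The set is treated as selected on the treatment differences of Il18rap in all CD45+ cells and of Stat4 in follicular-type B cells, which were known when it was proposed. All 7 were present as rows, and 6 of them were read often enough to be tested in all leukocytes together. The mice were female C57BL/6J animals of 10 to 12 weeks, and 5 of them received gonadotropin and 5 received saline, the group the sample labels call untreated. Viable CD45+ cells were sorted from the ovaries 48 h later. The cells of each mouse carried a TotalSeq-B hashtag of their own, and all 5 mice per group went into 1 library of the 10x Genomics 3' v3 droplet assay, so treatment, pool and library cannot be told apart.

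IL-18 binds a receptor made of the ligand-binding chain IL-18Rα, encoded by Il18r1, and the accessory chain IL-18Rβ, encoded by Il18rap, which signal through MyD88 and NF-κB. IL-12, whose larger subunit is the product of Il12b, binds IL-12Rβ1 and IL-12Rβ2, encoded by Il12rb1 and Il12rb2, and acts through the kinases JAK2 and TYK2 and the transcription factor STAT4. Natural killer (NK) cells, innate lymphoid cells of group 1 (ILC1) and memory T cells are known to carry both receptors, and the cytokines together are a known stimulus of interferon-γ in them.

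Il18r1 and Il18rap are neighbours on chromosome 1 of the mouse genome (build GRCm38.p6, to which mm10 corresponds). Il18r1 lies at chr1:40465552-40500854 and Il18rap at chr1:40515362-40551707, 14508 bases apart, and the gene before Il18r1 is Il1rl1 of the same receptor family. Stat4 lies on the same chromosome at chr1:51987106-52107189. Il12rb2 lies at chr6:67285986-67376293, Il12rb1 at chr8:70808360-70823542, Il18 at chr9:50554700-50581841 and Il12b at chr11:44400063-44414677. RefSeq promoter windows, each from 250 bases before to 50 after a transcript start, were at hand for 6 of the 7 genes, and Il12rb1 had none. The windows shown are 1 each of the 3 receptor chain genes whose mean level was highest in NK cells among the tested types. Each shown window holds a match to a STAT, ETS or RUNX motif, given in capitals. They are window 1 of Il18rap at chr1:40515112-40515411 on the plus strand, window 3 of Il18r1 at chr1:40465756-40466055 on the plus strand and window 1 of Il12rb2 at chr6:67376139-67376438 on the minus strand.
Il18rap: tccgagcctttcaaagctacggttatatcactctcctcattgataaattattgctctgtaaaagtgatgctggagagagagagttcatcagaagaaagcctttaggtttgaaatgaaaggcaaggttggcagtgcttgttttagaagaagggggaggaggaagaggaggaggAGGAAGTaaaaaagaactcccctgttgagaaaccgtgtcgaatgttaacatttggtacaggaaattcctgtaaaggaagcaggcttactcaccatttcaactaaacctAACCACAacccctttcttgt
Il18r1: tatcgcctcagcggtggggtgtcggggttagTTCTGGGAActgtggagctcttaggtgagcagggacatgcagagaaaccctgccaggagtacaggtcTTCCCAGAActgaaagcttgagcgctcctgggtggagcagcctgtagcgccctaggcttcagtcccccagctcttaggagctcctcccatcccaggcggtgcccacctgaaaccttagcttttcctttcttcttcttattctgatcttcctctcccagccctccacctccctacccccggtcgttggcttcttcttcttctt
Il12rb2: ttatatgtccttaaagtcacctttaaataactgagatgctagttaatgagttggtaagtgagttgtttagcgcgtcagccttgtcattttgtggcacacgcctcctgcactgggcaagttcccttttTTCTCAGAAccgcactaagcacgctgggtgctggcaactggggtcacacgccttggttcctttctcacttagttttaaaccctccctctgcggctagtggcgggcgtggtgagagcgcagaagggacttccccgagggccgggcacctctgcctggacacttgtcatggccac
The motif searched for STAT factors, the gamma-activated site, was TTCNNNGAA, which reads alike on both strands, and the others were AGGAAGT for ETS factors, TGTGGTT for RUNX factors and GGTGTGA for T-box factors, searched on both strands. The Il18r1 window holds 2 STAT matches, and the Il12rb2 window holds 1. The Il18rap window holds 1 ETS match and 1 RUNX match, the latter on the opposite strand. No printed match overlaps another. Of 32851 promoter windows of the same length, 8.30% hold a STAT match, 9.35% an ETS match, 5.27% a RUNX match and 3.98% a T-box match. The 2 windows of Stat4 hold none of these letters. Among windows not shown, window 2 of Il18r1 holds 1 RUNX match, and the Il18 window holds 1 RUNX match on the opposite strand. Window 1 of Il18r1 holds none of these letters. The shares of all windows are for a single window, while the Il18r1 window printed is 1 of 3.

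After quality filters 4918 cells assigned to 1 mouse remained of 6468 barcodes, 2423 from gonadotropin and 2495 from untreated mice, and 4 barcode sequences occurred in both libraries. Summed unique molecular identifiers (UMIs, counted transcripts) ran from 2559097 to 7097779 per mouse, and the median cell held 7034 UMIs in the gonadotropin and 7664 in the untreated group. Cell types were assigned by gates on detected marker genes that include no member of the set: B (2389 cells), CD4 T (452), CD8 T (412), T with neither Cd4 nor Cd8 (DN T, 369), NK and ILC1 (538) and several myeloid types. Among markers of other ovarian cells, stroma markers were at 0 in the NK and CD8 T gates. Granulosa markers reached at most 5.87 UMIs per 1000000 there. These gates select lymphocytes, so the values speak to free RNA in them and cannot tell the purity of the sort. All 26 cells of the erythrocyte gate came from gonadotropin mice, and summed globin UMIs per 1000000 were higher in that group in NK cells too, at 2.93 ± 6.55 in untreated against 51.9 ± 16.1 in gonadotropin mice (SD, n = 5 each). The part of this globin signal in the results below was not tested. A level below is the UMIs of a gene per 1000000 UMIs of the same mouse and type (CPM), and a log2 change is the edgeR estimate of gonadotropin over untreated with its standard error.

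Across the tested types, 3 of the 4 receptor chains, Il18rap, Il18r1 and Il12rb2, had their highest mean in NK and ILC1 cells. Il18rap, the accessory chain of the IL-18 receptor, had 484 CPM ± 113 (SD) in NK and ILC1 cells against 89.8 ± 36.3 in DN T cells over the 9 mice with at least 20 cells of both, and it was higher in all 9 (exact two-sided sign-flip test, adjusted p = 0.0130 over 30 comparisons of neighbouring types). DN T cells stood above CD8 T cells in 8 of 8 mice (exact test, adjusted p = 0.0213), with 86.6 against 50.1 CPM. Of the 369 DN T cells, 130 were innate-like, with at least 2 NK or 2 gamma delta T markers. Averaged over mice by UMI share, Il18rap in them was at 129 CPM in untreated and 186 in gonadotropin mice. Memory-type DN T cells had 87.1 and 142, and naive-type DN T cells 0 and 1.48. For Il12rb2 these subsets had, in the same order, 156 and 246, 127 and 147, and 0 and 2.72 CPM. CD8 T and CD4 T cells, at 51.3 and 36.1 CPM, did not differ beyond their spread (exact test, adjusted p = 0.234). B cells of both subsets were below 1 CPM on average.
Il18r1, the ligand-binding chain, was spread more evenly. NK and ILC1 cells had 428 CPM ± 99.7 and DN T cells 301 ± 101 (SD, n = 9), higher in NK and ILC1 cells in 8 of 9 mice, a gap that missed the threshold (exact test, adjusted p = 0.100). In DN T cells untreated mouse 4 stood at 534 CPM, above 217 to 235 in the other untreated mice. DN T cells stood above CD8 T cells in 8 of 8 mice, at 272 and 169 CPM (exact test, adjusted p = 0.0213). CD4 T cells, at 161 CPM, were far above follicular-type B cells at 1.8 CPM in 10 of 10 mice (exact test, adjusted p = 0.0130).

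The IL-12 receptor chains differed in their order. Il12rb2, the chain that recruits STAT4, had 345 CPM ± 31.3 (SD, n = 9) in NK and ILC1 cells, 96.7 ± 36.2 in DN T cells and 30.8 ± 29.3 in CD4 T cells, and each step held in 9 of 9 mice (exact tests, adjusted p = 0.0130 for both). CD4 T and CD8 T cells, at 29.0 and 13.4 CPM, did not differ beyond their spread. Il12rb1, the chain shared with the IL-23 receptor, was thinly read everywhere, at 12.6 CPM in DN T and 12.3 in NK and ILC1 cells, and no neighbouring pair among DN T, NK and ILC1, CD8 T and CD4 T cells passed the test.
Stat4 was the member found in most types. NK and ILC1 cells had 749 CPM ± 84.3 and DN T cells 491 ± 88.7 (SD, n = 9; higher in 9 of 9, exact test, adjusted p = 0.0130). DN T, CD8 T, CD4 T and follicular-type B cells then formed a run in which no neighbours differed beyond their spread, and with totals scaled by TMM factors (edgeR's correction for library composition) the order of DN T and CD8 T cells turned round. Follicular-type B cells, at 329 CPM, stood above B-1-type B cells, at 51.4, in 9 of 9 mice with 20 cells of both (exact test, adjusted p = 0.0130).

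**Figure D1:**
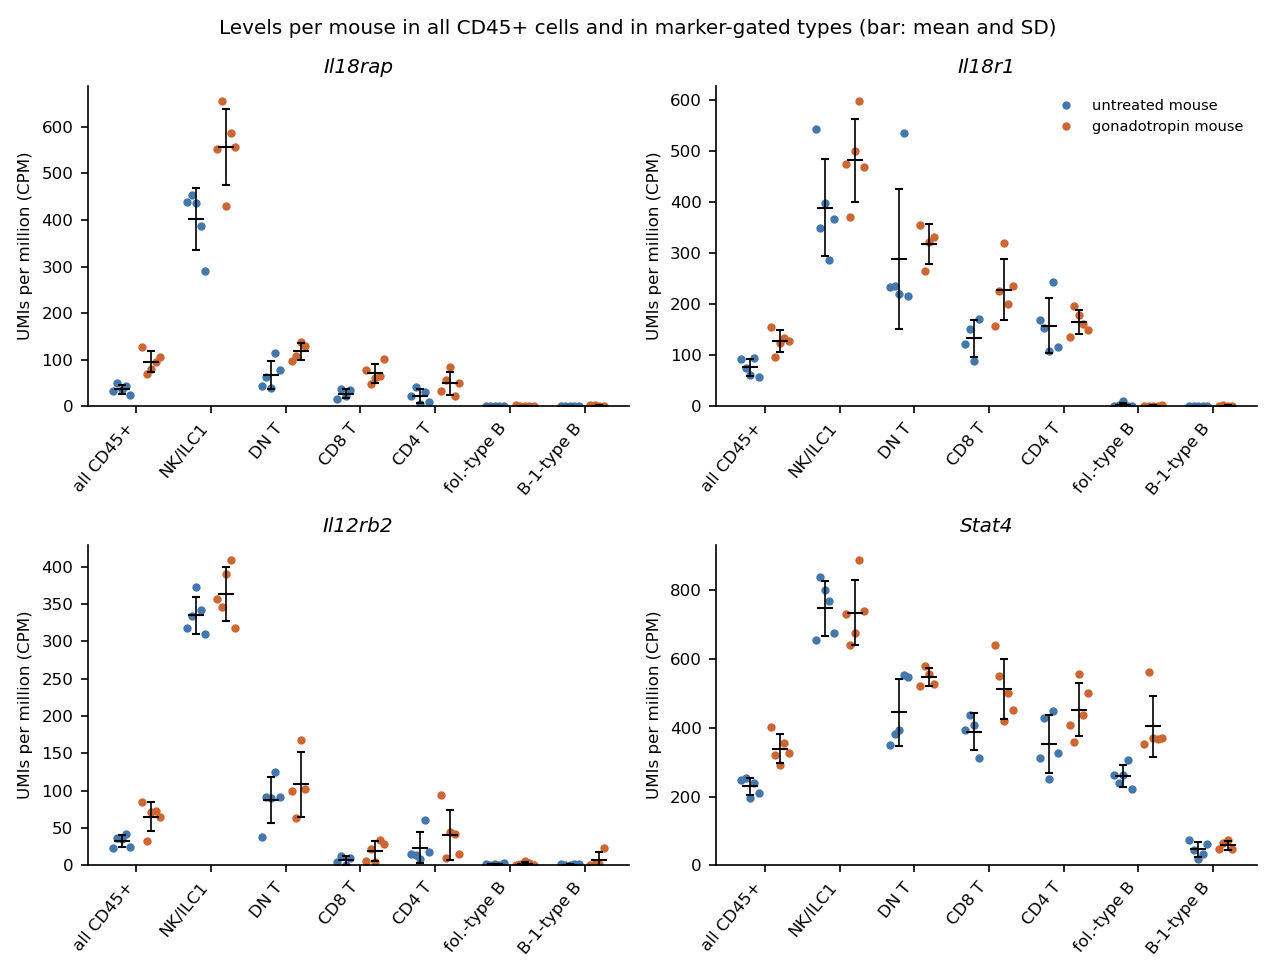
CPM (vertical axis, linear) of Il18rap, Il18r1, Il12rb2 and Stat4 in all CD45+ cells and in marker-gated types, with 1 point per mouse with at least 20 cells of the type, blue for untreated and orange for gonadotropin, and bars for mean and SD. The 3 receptor chains are highest in NK and ILC1 cells and near 0 in B cells, while Stat4 is also read in T cells and follicular-type B cells.

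Within T cells the members followed the division into naive-type cells (more detected markers among Ccr7, Lef1 and Igfbp4) and memory-type cells (more among Cd44, S100a4, Itgb1 and Cxcr3). In all 9 mice with at least 10 cells of both, all 5 receptor and transducer genes were higher in the memory-type cells (exact two-sided sign-flip tests, adjusted p = 0.00837 for each over 30 comparisons). Il18rap had 139 CPM ± 62.1 in memory-type and 3.38 ± 2.80 in naive-type T cells (SD, n = 9), the widest ratio of the 5, followed by Il12rb2, which had 91.7 ± 36.5 and 3.36 ± 2.05. Il18r1 had 335 ± 48.5 and 101 ± 23.9 CPM, so naive-type cells kept part of this chain while the accessory chain was nearly unread. Stat4 had 598 ± 80.3 and 331 ± 73.0 CPM.
Among naive-type T, memory-type T and NK cells, Il12rb1 was the one chain with its highest mean in memory-type T cells. It had 19.7 CPM ± 4.76 there, 1.5 ± 1.85 in naive-type T cells and 10.0 ± 5.65 in NK cells (SD, n = 9), and NK cells stood below memory-type T cells in 8 of 9 mice (exact test, adjusted p = 0.0345). Il18rap, Il18r1 and Il12rb2 went the other way, higher in NK cells in 9 of 9 mice (exact tests, adjusted p = 0.00837). Stat4 was higher in NK cells in 8 of 9 (exact test, adjusted p = 0.0345). Il18rap was at 5.20 CPM in naive-type CD8 and 1.45 in naive-type CD4 T cells, higher in CD8 in 7 of 10 mice, a difference that did not pass (exact test, adjusted p = 0.111). It had passed before a naive-type marker was left out of the division with the data seen. The median memory-type CD4, CD8 and DN T cell held 7464.5, 9129 and 7923 UMIs, and the naive-type ones 7887, 9282 and 7048.

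**Figure D2:**
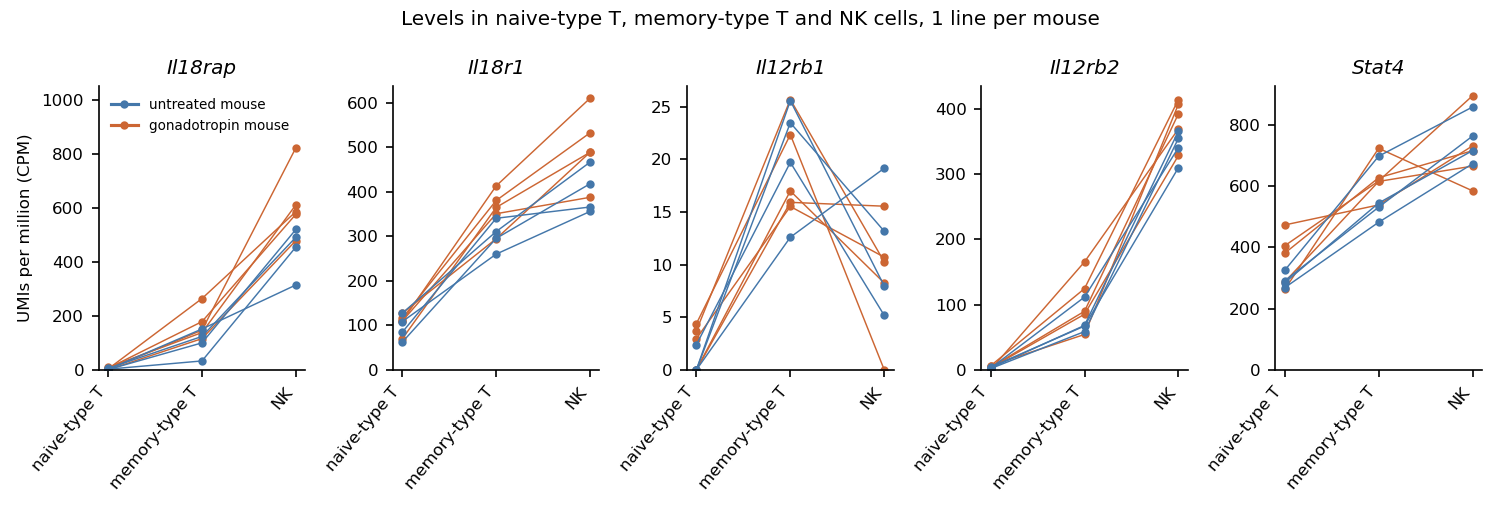
CPM (vertical axis, linear) of 5 members in naive-type T, memory-type T and NK cells, with 1 line for each of the 9 mice with at least 10 cells of all 3, blue for untreated and orange for gonadotropin. Il12rb1 is highest in memory-type T cells in 8 of 9 mice, and the other 4 genes are highest in NK cells in all or 8 of 9 mice.

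Several types with few cells also held receptor chains, given here as sums over the mice of a group with Poisson intervals at 95% that cover counting error only. Neutrophils, 112 cells, had Il18rap at 185 CPM (123 to 267) in untreated and 148 (111 to 194) in gonadotropin mice, but little Il18r1, at 19.8 (4.1 to 57.9) and 34.2 (17.7 to 59.7). The 20 mast cells or basophils had Il18r1 at 430 CPM (279 to 635) and 730 (526 to 987) and Il18rap at 172 (82.6 to 317) and 139 (60.0 to 274). Il12rb2 was at 0 in these 20 cells in both groups, which allows up to 51.6 and 52.1 CPM. The 45 ILC1-type cells had Il12rb2 at 249 (186 to 327) and 237 (177 to 311) CPM and Il18rap at 149 (101 to 211) and 164 (115 to 227). Monocytes had some Il12rb2, at 16.6 (9.3 to 27.5) and 25.2 (17.4 to 35.2) CPM, with Il18rap at 2.2 and 1.5. None of these low-count types had enough mice for a test of the treatment.

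The ligand genes were read little in NK and T cells, while monocytes held both Il18 and some Il12rb2. Il18, which is stored as a precursor and cut by caspase-1, was highest among the tested types in B-1-type B cells, at 56.2 CPM ± 20.2 against 7.15 ± 3.75 in follicular-type B cells (SD, n = 9; higher in 9 of 9, exact sign-flip test, adjusted p = 0.0130). The median B-1-type cell held 13711.5 UMIs and the median follicular-type cell 5828.5. Follicular-type B cells in turn stood above NK and ILC1 cells in 9 of 10 mice, at 7.29 against 1.86 CPM (exact test, adjusted p = 0.0130). Dendritic cells had 67.9 CPM (48.5 to 92.4) in untreated and 46.1 (31.1 to 65.8) in gonadotropin mice, monocytes 46.6 (33.6 to 63.0) and 42.9 (32.6 to 55.5), and macrophages 36.1 (22.6 to 54.7) and 40.0 (29.1 to 53.7), summed over mice. The intervals of each of these 3 myeloid types overlapped between the groups.
Stat4 and Il18 thus took opposite sides of the B cell compartment. Over the 10 mice with at least 10 cells of both subsets, follicular-type cells had 332 CPM of Stat4 and 7.29 of Il18, and B-1-type cells had 59.0 and 52.6, in the same order in 10 of 10 mice for each gene (exact tests, adjusted p = 0.00837).
Il12b was found in 3 kept cells, all of gonadotropin mice (1, 2 and 5), with 8, 3 and 1 UMIs. Of these, 1 was in the dendritic gate and 2 were ungated, and all 3 lay in 1 cluster and carried UMIs of Ccr7 and Fscn1, genes known from migratory dendritic cells. No Il12b was read in the untreated cells, and 12 UMIs in 3 cells allow no statement on a difference.

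**Figure D3:**
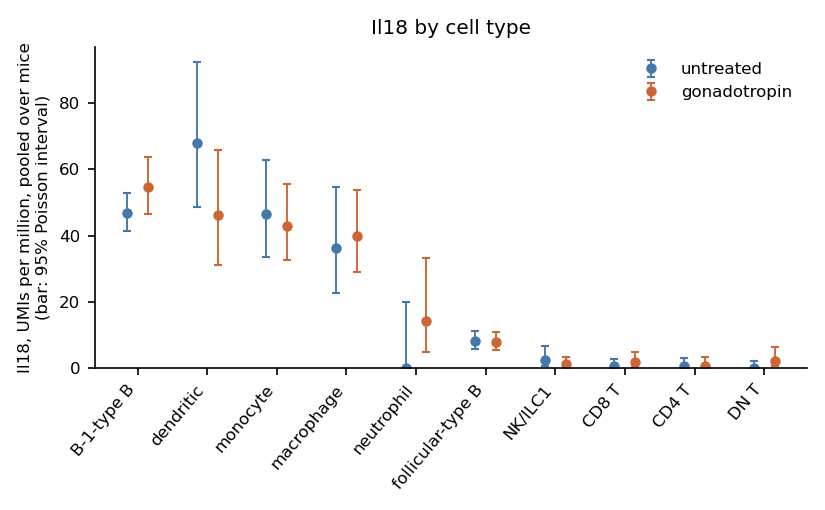
Il18 in CPM (vertical axis, linear) by cell type, summed over the mice of each group, blue for untreated and orange for gonadotropin, with Poisson intervals at 95%. B-1-type B cells, dendritic cells, monocytes and macrophages are above 30 CPM in both groups, and T and NK cells are below 3 CPM.

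The treatment was followed first in all CD45+ cells of a mouse summed. This contrast was known when the genes were chosen, so its values are a description without a test. Il18rap had 33.3, 49.5, 34.3, 43.0 and 24.6 CPM in untreated mice 1 to 5 and 127, 69.1, 79.4, 94.5 and 106 in gonadotropin mice 1 to 5. The groups did not overlap, and the means were 36.9 ± 9.58 and 95.1 ± 22.6 (SD, n = 5 each), a log2 change of 1.32 ± 0.18 (SE).
Il18r1 had 93.1, 74.5, 60.8, 94.2 and 57.1 CPM in untreated mice and 155, 96.9, 125, 133 and 128 in gonadotropin mice. The lowest gonadotropin mouse, number 2, lay just above the highest untreated mouse, and the log2 change was 0.70 ± 0.15 (SE).
Il12rb2 had 22.6, 36.1, 34.6, 41.8 and 24.9 CPM in untreated mice and 85.2, 32.2, 70.9, 72.3 and 64.9 in gonadotropin mice. Here gonadotropin mouse 2 fell among the untreated mice and the other 4 lay above all of them, with a log2 change of 0.999 ± 0.22 (SE).
Stat4 had 249, 254, 195, 239 and 209 CPM in untreated mice and 403, 320, 291, 356 and 325 in gonadotropin mice. The groups did not overlap, and the log2 change was 0.51 ± 0.09 (SE).
Il12rb1 ran from 1.7 to 5.9 CPM in untreated and from 3.5 to 5.4 in gonadotropin mice, and Il18 from 16.1 to 28.4 and from 7.6 to 27.6. Both overlapped between the groups, with log2 changes of 0.55 ± 0.30 and -0.26 ± 0.27 (SE). In this contrast edgeR called 4 of the 6 tested members higher and none lower, where 9.12% of all 11266 tested genes were called and 4.97% were called higher. Nothing is read from that count.

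A sum over all leukocytes mixes how many cells of a type there are with what each cell holds. NK and ILC1 cells made up 4.95, 8.92, 9.12, 8.45 and 6.06% of the cells of untreated mice 1 to 5 and 18.1, 7.41, 16.9, 14.98 and 14.8% of those of gonadotropin mice 1 to 5. Gonadotropin mouse 2, the one with untreated-like Il12rb2, was also the one whose NK share lay within the untreated range. The mean NK share was 7.50% ± 1.88 against 14.4% ± 4.17 (SD, n = 5 each; exact two-sided permutation test, p = 0.0317, adjusted p = 0.133 over 14 types), and B cells had 53.8% ± 4.40 against 41.2% ± 3.51 (exact p = 0.00794, adjusted p = 0.111). No type passed the adjusted threshold with all mice. Without gonadotropin mouse 2, 3 types passed, and NK and B cells were at an adjusted p of 0.0370 (exact permutation test). Over all mice left out in turn, 0 to 3 types passed. The adjusted p then reached up to 0.194 for NK and up to 0.111 for B cells (exact permutation tests).

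**Figure D4:**
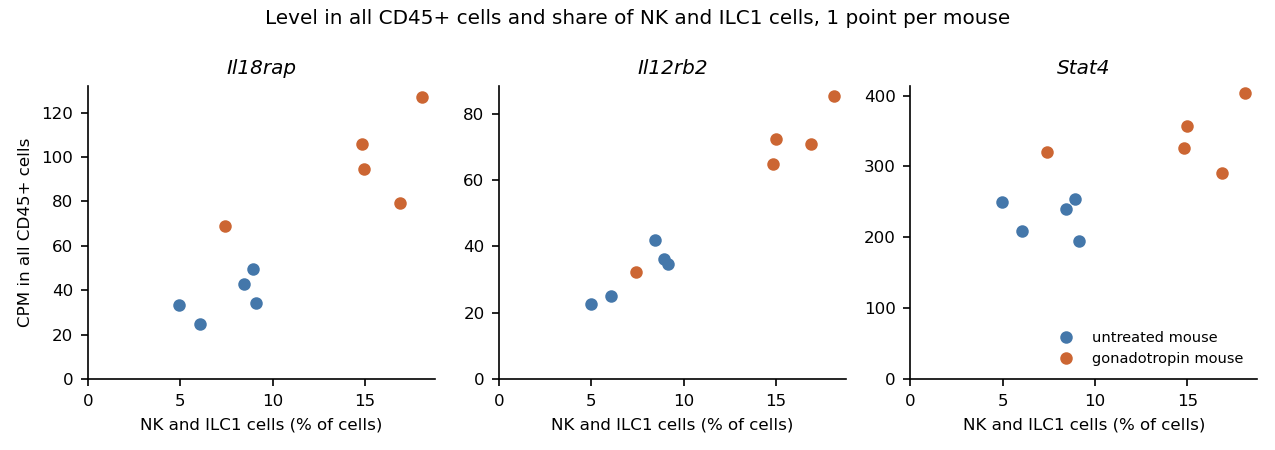
Level in all CD45+ cells in CPM (vertical axis) against the share of NK and ILC1 cells in percent of cells (horizontal axis), with 1 point per mouse, blue for untreated and orange for gonadotropin. Gonadotropin mouse 2, at 7.41% NK and ILC1 cells, lies among the untreated mice for Il12rb2 at 32.2 CPM but above them for Il18rap at 69.1 and Stat4 at 320.

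To separate these, the difference in all CD45+ cells was divided by arithmetic into a part from the changed shares of the gated types (mix) and a part from changed levels in them (within), with no test. Il12rb2 was mostly mix: of a difference of 33.1 CPM, 23.9 was mix and 9.21 within, so mix made up 72.2%. For Il18rap, mix made up 33.7 of 58.2 CPM, or 57.9%, and for Il18r1 28.4 of 51.6 CPM, or 55.0%. Stat4 was mostly within, with 22.4 of 110 CPM, or 20.4%, from mix. Its mix part was 12.4 CPM (13.2%) without gonadotropin mouse 1 and 32.1 CPM (28.0%) without gonadotropin mouse 2.
NK and ILC1 cells carried most of the receptor difference. Their part of the UMIs was 6.21% in untreated and 12.9% in gonadotropin mice on average. For Il18rap they made up 45.0 of the 58.2 CPM, 31.9 by mix and 13.2 within, and for Il12rb2 26.0 of the 33.1 CPM, 23.5 by mix and 2.5 within. For Stat4 their mix part of 50.3 CPM stood against a within part of -1.7, while B cells had a mix part of -32.7 and a within part of 58.0.
Finer divisions moved more of each difference from within to mix. The subsets were naive-type, memory-type, innate-like and regulatory T, follicular-type and B-1-type B, NK and ILC1-type. With these subsets in place of the types, mix made up 68.5% for Il18rap, 71.3% for Il18r1, 80.9% for Il12rb2 and 45.9% for Stat4. With clusters crossed with gates, chosen after the data were seen, these were 71.3, 79.8, 83.9 and 57.8%. Under this division alone the Stat4 difference was mostly mix. Clusters not crossed with gates gave 60.7, 66.8, 82.0 and 25.1%, in the same order. Shares of cells with the mean level per cell gave 55.6, 48.7, 69.0 and 15.6%. With the gated types but without gonadotropin mouse 1, mix made up 48.4% for Il18r1. The clusters were made from the same cells of both groups, so a cell state that differed by treatment could be counted as mix. A division absent from 1 group took the level of the other group, so its within part was 0. What these 2 features add to the mix part was not tested.

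**Figure D5:**
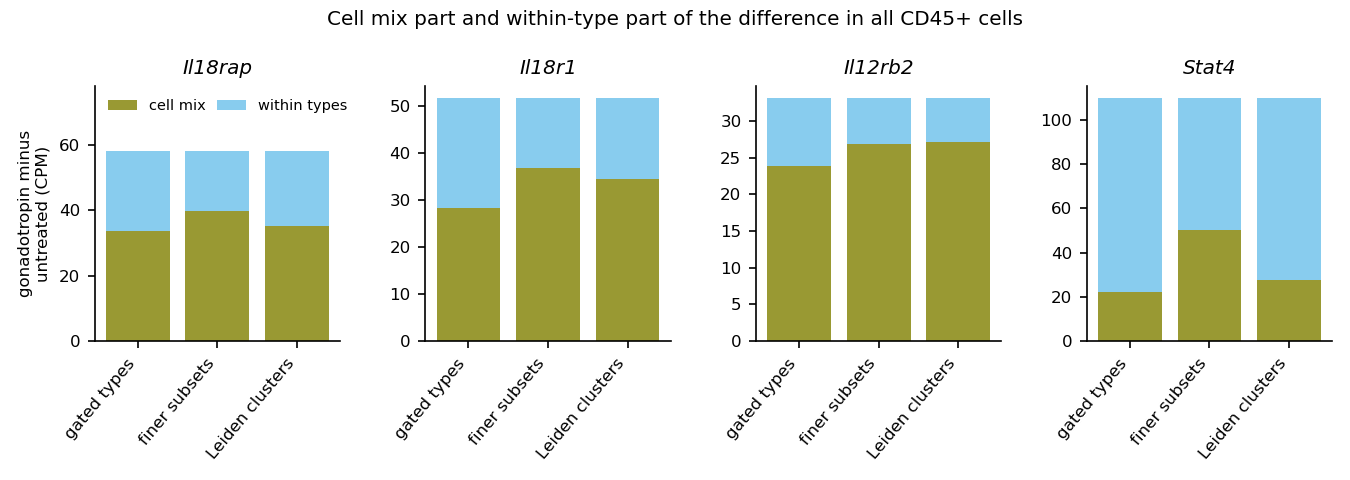
Difference in CPM between gonadotropin and untreated mice in all CD45+ cells (vertical axis, from 0), stacked as the part from the mix of types and the part within types, for gated types, finer subsets and Leiden clusters. The mix part is the larger for Il12rb2 under each division shown and the smaller for Stat4.

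Within NK and ILC1 cells, edgeR called 1 of 5331 tested genes (0.0188%; 352 at an unadjusted p under 0.05, and 4 called by DESeq2) and 0 of the 4 tested members. Il18rap had 440, 453, 437, 387 and 291 CPM in untreated and 553, 655, 431, 587 and 556 in gonadotropin mice, so that only gonadotropin mouse 3 lay among the untreated mice. Its log2 change was 0.45 ± 0.12 (SE), given as a description since this gene's response was among those already known.
Il18r1 had 542, 349, 398, 286 and 367 CPM in untreated and 473, 370, 499, 597 and 467 in gonadotropin mice. The groups overlapped, and the log2 change of 0.32 ± 0.14 (SE) missed the threshold (edgeR, adjusted p = 0.711).
Il12rb2 had 317, 335, 373, 342 and 310 CPM against 356, 346, 390, 409 and 318, a log2 change of 0.11 ± 0.11 (SE; edgeR, adjusted p = 0.855; 95% interval from the SE, -0.10 to 0.33). Stat4 had 654, 838, 801, 769 and 676 against 731, 641, 678, 889 and 740, a log2 change of -0.03 ± 0.10 (SE; edgeR, adjusted p = 0.983). Both genes overlapped widely between the groups. Summed NK markers in these cells were 4115 CPM ± 357 and 3957 ± 380 (SD, n = 5 each).
The share of NK and ILC1 cells with a UMI was taken after each cell was thinned to 2000 UMIs, which left 181 untreated and 354 gonadotropin cells. Il18rap was found in 52.3% ± 8.75 of the cells of untreated and 58.8% ± 8.20 of those of gonadotropin mice, Il12rb2 in 46.0% ± 5.63 and 49.8% ± 7.85, and Stat4 in 68.5% ± 10.9 and 66.7% ± 9.12 (SD, n = 5 each). Without thinning these shares were 83.4 and 87.5% for Il18rap, 84.8 and 81.4% for Il12rb2 and 95.3 and 93.1% for Stat4, so the order of the groups turned round for Il12rb2. The background in follicular-type B cells was 0 of 754 untreated cells for Il18rap, which allows a share of up to 0.398%, and 1 of 691 gonadotropin cells, with a median depth of 5828.5 UMIs against 6666 in NK cells. Of 42 such comparisons between the groups over members and types, none passed after adjustment (exact permutation tests; 5 at an unadjusted p under 0.05). Both IL-18 receptor chains were read in 193 of 535 NK and ILC1 cells at this depth (36.1%, against 30.6% if the chains were independent) and in 0 of 723 naive-type T cells, where independent chains would give 0.088% and a count of 0 leaves room for at most 0.415%, so nothing on joint reading can be told at this depth.

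In CD8 T cells, edgeR called 71 of 5433 genes (1.31%), among them 1 of the 3 tested members. That gene, Il18rap, had 16.0, 36.1, 22.1 and 35.0 CPM in untreated mice 1, 2, 3 and 5 and 78.4, 46.8, 60.1, 65.5 and 101 in gonadotropin mice, without overlap. Untreated mouse 4, with 19 CD8 T cells and no Il18rap UMI, was left out of the fit. The log2 change was 1.20 ± 0.26 (SE), and is again a description. It was 0.34 in the 342-cell cluster made without the members that held mostly CD8 T cells, and 1.001 without untreated mouse 1, and both of these missed the threshold.
Il18r1 had 122, 151, 88.4 and 172 CPM against 157, 226, 319, 201 and 236, overlapping through gonadotropin mouse 1, and its log2 change of 0.60 ± 0.17 (SE) lay just short of the threshold (edgeR, adjusted p = 0.0653). Without gonadotropin mouse 1 it was 0.71, and without untreated mouse 5 it was 0.73, both past the threshold. Over all mice left out in turn, the Il18r1 change ran from 0.49 to 0.73, with adjusted p from 0.0252 to 0.195 (edgeR). Stat4 had a log2 change of 0.36 ± 0.12 (SE; edgeR, adjusted p = 0.143).
The makeup of the CD8 T cells moved with these values. The 4 memory-type markers summed to 261 CPM (197 to 320) in untreated and 669 (449 to 1240) in gonadotropin mice, with none of them at 0, and the 4 NK markers to 13.3 (0 to 33.3) and 79.4 (40.5 to 151), with 1 of the 4 at 0 in each group. Memory-type cells were 13.4% ± 6.14 of the CD8 T cells of untreated and 27.9% ± 3.94 of those of gonadotropin mice (SD, n = 5 each; exact permutation test, p = 0.00794, adjusted p = 0.0437 over 11 shares). This share passed only after a naive-type marker was left out of the division with the data seen. When the CD8 T cells were divided into their subsets, 44.9% of the Il18rap difference and 41.5% of the Il18r1 difference were mix. This split and the memory-type share include untreated mouse 4, which the edgeR fit left out.

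CD4 T and DN T cells gave no called member. In CD4 T cells edgeR called 4 of 4710 genes (0.0849%) and 0 of 3 members. Il18r1 was at a log2 change of 0.06 ± 0.17 (SE; edgeR, adjusted p = 0.958) and Stat4 at 0.32 ± 0.14 (adjusted p = 0.510), while Il18rap, as a description, was at 0.98 ± 0.40, from 22.4, 41.8, 4.5, 30.3 and 10.2 CPM in untreated to 33.3, 55.9, 85.3, 21.6 and 49.6 in gonadotropin mice. The Il18rap groups overlapped. Memory-type cells were 18.2% ± 4.64 of the CD4 T cells of untreated and 27.4% ± 8.25 of those of gonadotropin mice (SD, n = 5 each; exact permutation test, p = 0.0159, adjusted p = 0.0437), a share that likewise passed only with the shortened marker list. When the CD4 T cells were divided into their subsets, 40.5% of the Il18rap difference was mix.
In DN T cells edgeR called 0 of 4553 genes (0%; 310 at an unadjusted p under 0.05, and 2 called by DESeq2), with 4 members tested. Il18r1 was at 0.15 ± 0.21 (SE; edgeR, adjusted p = 0.903), Il12rb2 at 0.40 ± 0.29 (adjusted p = 0.813) and Stat4 at 0.26 ± 0.14 (adjusted p = 0.757), with gonadotropin mouse 3 left out for having 15 cells. Leaving out 1 more mouse moved Il18r1 between 0.0728 (without untreated mouse 5) and 0.43 (without untreated mouse 4), and Il12rb2 between 0.0505 (without gonadotropin mouse 4) and 0.57 (without gonadotropin mouse 2), with no call. Il18rap was at 0.84 ± 0.25 (SE).
In the naive-type cells of all T gates, edgeR called 72 of 5834 genes (1.23%) and neither of the 2 tested members. Il18r1 was at -0.06 ± 0.17 (SE; edgeR, adjusted p = 0.926) and Stat4 at 0.24 ± 0.12 (adjusted p = 0.368). Without gonadotropin mouse 4 the called genes were 22 and without gonadotropin mouse 2 they were 185, and neither member passed without any 1 mouse.

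In B cells Stat4 was the member that differed. Follicular-type cells had 264, 240, 263, 306 and 222 CPM in untreated and 353, 562, 369, 368 and 372 in gonadotropin mice. The groups did not overlap, gonadotropin mouse 2 stood far above the other 4, and the log2 change was 0.64 ± 0.11 (SE), with 139 of 7457 genes called (1.86%) and this gene, the only member tested, among them. Its response in these cells was known beforehand, so no p is given.
Over all B cells Stat4 had 168, 147, 91.8, 121 and 143 CPM in untreated and 301, 312, 214, 235 and 228 in gonadotropin mice, again without overlap, a log2 change of 0.88 ± 0.12 (SE), where 248 of 9064 genes were called (2.74%) and 1 of 2 tested members. B-1-type cells, which hold little Stat4, were 33.0% ± 8.10 of the B cells of untreated and 20.4% ± 7.97 of those of gonadotropin mice (SD, n = 5 each; exact permutation test, p = 0.0317, adjusted p = 0.0582). Of the Stat4 difference within B cells, 37.2 of 124 CPM was this mix.
In B-1-type cells edgeR called 26 of 7751 genes (0.335%) and 0 of 2 members. Stat4 was at 0.37 ± 0.25 (SE), a description, and Il18 at 0.35 ± 0.24 (edgeR, adjusted p = 0.720). Il18 had 68.9, 34.7, 56.2, 50.3 and 32.9 CPM in untreated mice and 77.0, 53.5, 39.4 and 92.8 in gonadotropin mice 2 to 5, and the groups overlapped. In all B cells Il18 was at -0.14 ± 0.28 (SE; edgeR, adjusted p = 0.843).

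The responses of 2 types were also set against each other in models with the mouse as a term. Of 45 such tests of members over 10 pairs of types, edgeR called 1, and 11 had an unadjusted p under 0.05. The background of called genes was 0% in all 4 pairs with DN T cells, 0.0243 and 0.0953% for B against CD4 T and CD8 T, 0.0504% for CD4 T against CD8 T, and 0.0333 and 0.0758% for NK and ILC1 against CD4 T and CD8 T. The called one was Stat4, whose log2 change was lower in NK and ILC1 than in B cells by -0.90 ± 0.18 (SE), where 4 of 8850 genes were called (0.0452%), and it rests on the known B cell response. Stat4 in NK and ILC1 against CD8 T cells had a difference of -0.35 ± 0.17 (SE; edgeR, adjusted p = 0.818) and against CD4 T cells one of -0.34 ± 0.17 (adjusted p = 0.951).
With equal cell numbers per type drawn from every mouse, the log2 changes in the summed cells were 0.74 for Il18rap, 0.44 for Il18r1, 0.30 for Il12rb2 and 0.43 for Stat4, against 1.32, 0.70, 0.999 and 0.51 with all cells.

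The other genes of the pathway were counted in lists without the members, which were chosen with earlier results known. Of 17 tested known targets of IL-12 and IL-18 signals, 8 were higher in all CD45+ cells (edgeR, adjusted p under 0.05). Of all genes tested there, 4.97% were called higher. The median log2 change over the 17 was 0.94 against -0.003 over all genes tested. The 8 targets were Tbx21, a master regulator of type 1 lymphocytes (1.09 ± 0.19 SE), Eomes, its relative in NK cells (1.03 ± 0.27), the chemokines Xcl1 (1.29 ± 0.30) and Ccl5 (0.94 ± 0.21), the cytotoxic genes Gzmb (1.18 ± 0.31) and Prf1 (1.03 ± 0.28), the granzyme inhibitor Serpinb9 (1.11 ± 0.24) and Hopx (0.28 ± 0.08). The part of the NK and ILC1 share, given above, in this count was not tested.
Within NK and ILC1 cells 0 of 15 tested targets passed (edgeR), with a median of 0.14 against -0.007 over all genes. Ifng, the cytokine induced by both signals, was at -0.11 ± 0.18 there (SE; edgeR, adjusted p = 0.938), Prf1 at 0.04 ± 0.12 (adjusted p = 0.979) and Xcl1 at 0.38 ± 0.18 (adjusted p = 0.757). In CD8 T cells 2 of 9 targets rose, Ccl5 by 0.90 ± 0.16 and Tbx21 by 1.23 ± 0.30 (SE; edgeR, adjusted p = 0.00257 and 0.0304), beside the shift in memory-type and NK markers given above. In CD4 T cells 1 of 6 rose, Ccl5 by 1.52 ± 0.27 (SE, edgeR, adjusted p = 0.0145), beside the memory-type share of these cells given above. Of all genes tested, 0.0188% were called in NK and ILC1, 1.31% in CD8 T and 0.0849% in CD4 T cells.
Of the transducers, 14 of 15 listed genes were in the table. In all CD45+ cells 3 of 14 were higher, the kinases Tyk2 (0.32 ± 0.09 SE) and Irak4 (0.29 ± 0.07) and the adaptor Tab2 (0.35 ± 0.09), and in NK and ILC1 cells 0 of 12 passed (edgeR). In CD8 T cells Nfkb1 rose by 0.56 ± 0.14 (edgeR, adjusted p = 0.0305), 1 of 12 tested. The shares of all genes tested were 4.97% called higher in all CD45+ cells and 1.31% called in CD8 T cells.
The inhibitors went down where they moved. Nfkbia, which holds NF-κB in the cytoplasm, fell by 0.83 on the log2 scale in CD8 T and by 0.72 in naive-type T cells (edgeR, adjusted p = 0.0108 and 0.00436), Tnfaip3 fell by 0.55 in naive-type T cells (adjusted p = 0.0419) and Socs3 fell by 1.03 in B cells (adjusted p = 0.0319). These were 1 of 4 tested feedback genes in CD8 T, 2 of 4 in naive-type T and 1 of 4 in B cells, and 0 of 6 passed in all CD45+ cells (edgeR). Of all genes tested, 1.31, 1.23, 2.74 and 9.12% were called in these, in the same order.
Of the known targets 0 of 4 tested passed in naive-type T cells (edgeR).
Il6st, the gp130 chain of the IL-27 receptor, fell by 0.61 on the log2 scale in all CD45+ cells (1 of 3 tested; edgeR, adjusted p = 0.00807), by 0.80 in B cells and by 1.12 in follicular-type B cells (1 of 2 tested in each; adjusted p = 0.0275 and 0.0125). Of the IL-1 receptor family genes, Il1r2, a decoy receptor (0.85 ± 0.24 SE), and Il1rap (0.58 ± 0.17) were higher among 5 tested in all CD45+ cells, and of 11 tested ligand and processing genes 0 passed (edgeR). Of all genes tested, 9.12% were called in all CD45+ cells (4.97% higher), 2.74% in B and 1.86% in follicular-type B cells.

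The genes whose mean level over 10 gated types followed a member most closely were taken by Pearson correlation of log2(CPM + 1) among 10327 genes, as a description over types that share mice and libraries. For Il18rap they were Rab37 (r = 0.89), Vps28, Rac2, Grik5 and Slc2a3 (0.83), for Stat4 Wrn (0.985), Gbp4, Sirt5, Psip1 and Jakmip1 (0.977), and for Il18 Ly86 (0.992), Tbc1d9, Cd180, H2-DMb1 and Neurl2 (0.980).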

How the data were processed

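Leukocytes of 5 gonadotropin and 5 untreated mice were measured as 1 pooled 10x library per group. Values come from a deposited matrix of raw UMI counts, per the file headers, with no scaling by the authors. Build mm10 and the tools Cell Ranger, bcl2fastq and Seurat stand in the submitters' processing notes. Hashtag calls are the authors' deposited ones, with a threshold not given in the sources used here. The members and gene lists were chosen with earlier results of these data known.

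Kept barcodes had 1 hashtag, 500 or more genes and a mitochondrial share below 10%, which left out 1348 hashtag doublets, 89 negatives and 113 other cells. No further doublet caller was run, and 31 cells that passed gates of several lineages were set aside as mixed. Gates count detected markers (at least 3 of 5 for B, 2 of 4 for T and for NK). A cell in neither the Cd4 nor the Cd8 gate was called DN T, which includes cells whose Cd4 or Cd8 was not read. The DN T gate also holds 130 innate-like cells, with at least 2 NK or 2 gamma delta T markers. These are in neither the naive-type nor the memory-type class. B cells were divided into B-1-type (at least 3 of 5 markers) and follicular-type (at least 2 of 3), T cells into naive-type and memory-type by the larger marker count. One listed naive-type marker is not reported here and was left out of this division after the data were seen, which lowered the number of genes called in naive-type T cells, took the memory-type shares of CD4 and CD8 T cells past the threshold and took the naive-type CD8 against CD4 difference in Il18rap below it. Counts were summed per mouse and type and tested with edgeR 4.0.16 (TMM, filterByExpr, quasi-likelihood, Benjamini-Hochberg over all genes, threshold 0.05) in mice with at least 20 cells. Levels were compared between types by exact sign-flip tests over mice, and shares by exact permutation. The genes named are the members, the listed pathway genes and the 5 genes most like Il18rap, Stat4 and Il18 among those with at least 10 CPM in 1 type, leaving out Gm and Rik models, mitochondrial and ribosomal protein genes and antigen receptor segments. The alternatives were DESeq2 1.42.0, another filter, finer subsets of the same gates, scanpy 1.11.5 clusters made without the members and leaving out each mouse. The gate cutoffs were not varied. The edgeR fit was tested on simulated counts with known changes for all CD45+, NK and ILC1 and CD8 T cells. Every gene was given the same dispersion (spread between mice beyond counting error), and no spread between libraries was simulated. Replicates are mice told apart by hashtag within 1 library, so p-values do not include the spread between libraries. Intervals cover counting error only.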

Additional observations from a re-analysis of the deposited data

Results flagged for a closer look

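In 57 groups of 4 or 5 mice, 4 held a mouse far from the others, where chance gives about 1 in 20. Il12rb2 in B-1-type B cells was 22.6 CPM in gonadotropin mouse 5, while the other 3 tested gonadotropin mice had 0 to 2.36. Il12rb2 in CD4 T cells was 60.7 CPM in untreated mouse 4, against 8.94 to 18.3 in the other untreated mice. Il18r1 in DN T cells was 534 CPM in the same mouse, against 217 to 235. Stat4 in follicular-type B cells was 562 CPM in gonadotropin mouse 2, against 353 to 372 in the other gonadotropin mice, and without that mouse the log2 change was 0.51. Outside the kept cells, 7 UMIs of Il12b were found in 1 hashtag doublet of the untreated pool, where the kept untreated cells held none.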

How the results depend on the processing

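Of 753 values under alternatives, 659 were labelled as kept. A tested value was labelled so if it kept its direction and side of the threshold. A part of a difference had to stay within the spread of the mice, and a count of calls within a fixed factor of the main count. Of the other values, 61 were labelled moved, 21 reversed, 4 weaker and 8 stronger. No paired analysis was possible because mouse numbers only name the mice of a group and pair none across groups. Leaving out 1 mouse gave 682 to 1063 called genes in all CD45+ cells, 51 to 288 in B, 0 to 7 in CD4 T, 30 to 92 in CD8 T, 0 to 2 in DN T, 1 to 3 in NK and ILC1, 52 to 212 in follicular-type B, 12 to 35 in B-1-type B and 22 to 185 in naive-type T cells, and 0 to 3 types with a changed share. With no filter beyond 1 count the called genes were 638 in B, 49 in CD4 T, 125 in CD8 T, 71 in DN T, 51 in NK and ILC1, 226 in follicular-type B, 86 in B-1-type B and 128 in naive-type T cells. Clusters made without the members gave 20 in CD4 T, 20 in CD8 T, 1 in DN T and 9 in NK and ILC1 cells, at least 10 cells per mouse gave 108 in CD8 T, DESeq2 gave 2 in DN T and 4 in NK and ILC1, and equal draws of each type gave 82 in all CD45+ cells. For these counts the cause was not tested.

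Stat4 in NK and ILC1 cells turned to 0.0094 without the filter and to 0.000406 in clusters, and ranged from -0.12 to 0.0163 without 1 mouse. Il18 in B cells ranged from -0.35 to 0.0858 and Il18r1 from -0.0499 to 0.19 in CD4 T and from -0.16 to 0.0738 in naive-type T cells, where DESeq2 gave it no adjusted p. The Il18 parts of the difference changed sign, mix to 0.24 CPM and within to 0.88 with cell shares, within to 2.13 with finer subsets and to 3.31 with clusters crossed with gates, and without 1 mouse within ran from -3.23 to 1.65. The Il12b mix part ran from -0.0064 to 0.13. With clusters crossed with gates, added after the data were seen, Stat4 had 63.4 CPM mix and 46.3 within. Stat4 in DN T minus CD8 T cells was -22.0 CPM with TMM-scaled totals. Il18r1 in CD8 T cells passed the threshold with DESeq2 (0.64) and without the filter (0.58). Depth limits Il12rb1 and Il12b, and the types with few cells.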
